A study of Solenopsis invicta with 4 samples.

Results

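The transcripts described here are those of the respiratory chain that are encoded in the mitochondrial DNA of Solenopsis invicta, the red imported fire ant. Members were chosen by the text of the deposited annotation: the protein description had to name subunit 1, 2 or 3 of cytochrome c oxidase, a numbered subunit of NADH dehydrogenase, cytochrome b or an F0 subunit of ATP synthase, and the protein or nucleotide description had to name Solenopsis. This gave 6 assembled contigs, 1 for each of the genes ND2, ND3, ND4, ND5, CYTB and COX1, of 9001 contigs listed in the 3 deposited tables. RNA came from the whole bodies of wild-type medium workers, adult ants, kept for 24 h at 10, 20, 30 or 40 °C after colony life at 25 °C, and 30 °C was the control. There was 1 library at each temperature, so no difference has a replicate check, no test between temperatures was made, and every comparison is between 2 libraries.

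Mitochondrial DNA of animals encodes a small set of proteins, all of them core subunits of the machinery that passes electrons to oxygen and makes ATP. The ND genes encode membrane subunits of complex I, which takes electrons from NADH and pumps protons. CYTB encodes the central subunit of complex III and COX1 the catalytic subunit of complex IV, which reduces oxygen. The DNA is transcribed in long precursors that are cut into the single messages, and in insects ND4 and ND5 lie next to each other on the strand opposite to that of COX1, CYTB, ND2 and ND3. The subunits of these complexes that mitochondrial DNA does not encode come from nuclear genes, so the chain needs both genomes.

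The tables set 1 temperature each against 30 °C and hold only contigs that passed the authors' limits. The smallest fold in the authors' deposited tables was 2.36 at 10 °C, 2.36 at 20 °C and 2.35 at 40 °C, and the same values held among contigs with at least 1000 reads at 30 °C. A member missing from a table therefore has no value here and is not called unchanged. At 10 °C 3 members were listed (COX1, ND4 and ND5) and all 3 were higher than at 30 °C. At 20 °C all 6 were listed, of which 5 were higher and ND3 was lower. At 40 °C only ND3 was listed, and it was lower. No contig of its own was found by the rule for ND1, ND4L, ND6, COX2, COX3, ATP6 or ATP8. Of the 6 contigs, 5 had a nucleotide match to the mitochondrial genome of S. invicta. The exception was ND3, which had a protein match to Solenopsis geminata and no nucleotide match. The protein match of ND2 was also to S. geminata, but its nucleotide match was to S. invicta. The gene identifiers of the 6 members were looked up in the annotation of assembly UNIL_Sinv_3.0, where 0 of 6 were found, so no genome position is given.

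Reads are expressed in 2 ways. The authors' normalized values, called N, equal log2(CPM + 1), where CPM, the usual depth-scaled read count, uses a scaled library size. That size was 38277639 reads for the control library, against 30024104 for 10 °C, 23204029 for 20 °C and 43393168 for 40 °C. FPKM, which also divides by contig length, follows total reads instead. The totals implied by FPKM, with the control set to 1, were 0.798, 0.944 and 0.791 for 10, 20 and 40 °C, whereas the scaled sizes were 0.784, 0.606 and 1.13. Log2 ratios to 30 °C on the FPKM scale are thus 0.02 smaller at 10 °C, 0.64 smaller at 20 °C and 0.52 larger at 40 °C. Folds below are ratios of CPM with exact Clopper-Pearson 95% intervals, which cover counting error only, and the fold on the FPKM scale stands beside them where it matters.

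COX1 had the most reads of the 6. Its contig held 66232 reads at 10 °C, 51368 at 20 °C and 17417 at 30 °C, or 2206, 2213.8 and 455 CPM, with N values of 11.11, 11.11 and 8.83. The levels at 10 and 20 °C lay together and well above that at 30 °C. In the 20 °C table it ranked 1 by reads among 2953 contigs in both libraries, and in the 10 °C table it ranked 3 of 4596 in the 10 °C library. COX1 was 4.85-fold (4.77 to 4.93) higher at 10 °C and 4.87-fold (4.78 to 4.95) higher at 20 °C than at 30 °C. Per length, its FPKM was 479 at 10 °C, 313 at 20 °C and 100.5 at 30 °C. On the FPKM scale the fold was 4.77 (4.69 to 4.85) at 10 °C but 3.12 (3.07 to 3.18) at 20 °C. Whether COX1 differed between 10 and 20 °C therefore depends on the scale. The ratio of 10 to 20 °C was 0.996 (0.985 to 1.01) on the CPM scale and 1.53 (1.51 to 1.54) on the FPKM scale.

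**Figure D1:**
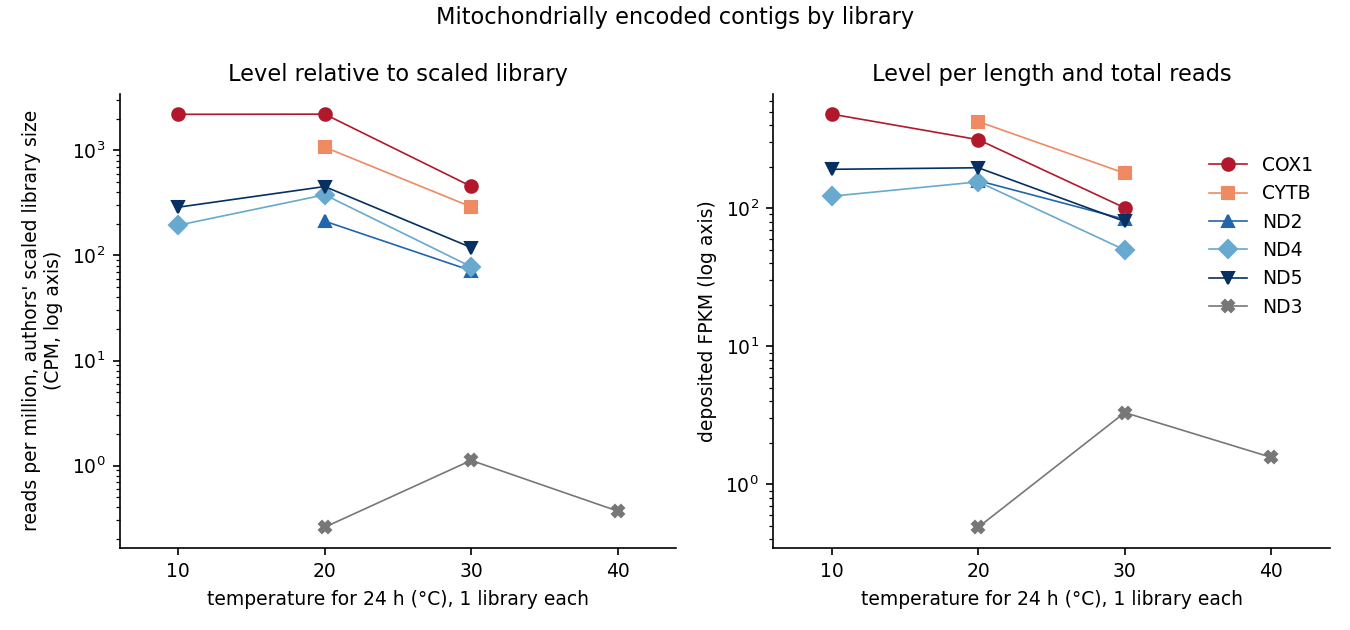
Level of each member in the libraries where it was listed, as CPM on the left and as deposited FPKM on the right, both on log axes against temperature in °C. Each point is 1 library, lines join points of 1 contig, and a missing point means that the contig was not listed. ND3 lies far below the other 5, which were all lower at 30 °C than at 10 or 20 °C where listed there.

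Of complex I, ND4 and ND5 were listed at both lower temperatures. Both belong to the membrane arm that pumps protons, and with ND2 they share the Pfam domain Proton_antipo_M, a proton-conducting antiporter domain, in the deposited annotation. ND4 held 5820 reads at 10 °C, 8780 at 20 °C and 2990 at 30 °C, which is 194, 378 and 78.1 CPM, with N values of 7.61, 8.57 and 6.31. ND5 held 8643 reads at 10 °C, 10503 at 20 °C and 4538 at 30 °C, which is 288, 453 and 119 CPM, with N values of 8.17, 8.83 and 6.90. Both were highest at 20 °C in CPM and lowest at 30 °C. ND4 was 2.48-fold (2.37 to 2.59) higher at 10 °C and 4.84-fold (4.65 to 5.05) higher at 20 °C. ND5 was 2.43-fold (2.34 to 2.52) higher at 10 °C and 3.82-fold (3.69 to 3.95) higher at 20 °C. The 2 genes, neighbours on the DNA, thus differed from 30 °C by nearly the same fold at 10 °C, with overlapping intervals, and by different folds at 20 °C.

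In contrast to COX1, the CPM of ND4 and ND5 was lower at 10 than at 20 °C. ND4 at 10 °C stood at 0.512 (0.496 to 0.530) of its CPM at 20 °C, and ND5 at 0.636 (0.618 to 0.654). On the FPKM scale these ratios were 0.785 (0.759 to 0.811) for ND4 and 0.974 (0.947 to 1.00) for ND5. The FPKM values were 122 at 10 °C, 155 at 20 °C and 49.8 at 30 °C for ND4, and 191, 196 and 80.1 for ND5. ND4 was thus lower at 10 than at 20 °C on both scales, while ND5 was clearly lower in CPM and nearly level in FPKM.

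CYTB and ND2 were listed at 20 °C only. CYTB held 24893 reads at 20 °C and 11115 at 30 °C, or 1072.8 and 290.4 CPM, with N values of 10.07 and 8.19. It was 3.69-fold (3.61 to 3.78) higher at 20 °C, and 2.37-fold (2.32 to 2.43) on the FPKM scale. ND2 held 4913 reads at 20 °C and 2744 at 30 °C, or 212 and 71.7 CPM, with N values of 7.73 and 6.18. ND2 had the smallest fold of the 5 higher members, 2.95 (2.82 to 3.10), and on the FPKM scale it was 1.90 (1.81 to 1.99), below 2-fold. In the order of folds at 20 °C COX1 and ND4 stood at the top, their intervals overlapping, then ND5 and CYTB, whose intervals also overlapped, and then ND2.

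ND3, a small core subunit of complex I, stood apart. It held 6 reads at 20 °C, 43 at 30 °C and 16 at 40 °C, or 0.259, 1.12 and 0.369 CPM, with N values of 0.33, 1.09 and 0.45 and FPKM of 0.490, 3.31 and 1.57. It was 4.34-fold (1.84 to 12.5) lower at 20 °C and 3.05-fold (1.68 to 5.79) lower at 40 °C. On the FPKM scale it was 6.77-fold (2.87 to 19.5) lower at 20 °C and 2.13-fold (1.17 to 4.05) lower at 40 °C. Its FPKM at 30 °C was 0.0399 of that of ND2, in the same library. With the few reads and no nucleotide match to the genome that the other 5 matched, whether it is the fire ant's mitochondrial ND3 message was not tested. It did not reach a mean of 1 CPM over the 2 libraries of either table and enters no count below.

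**Figure D2:**
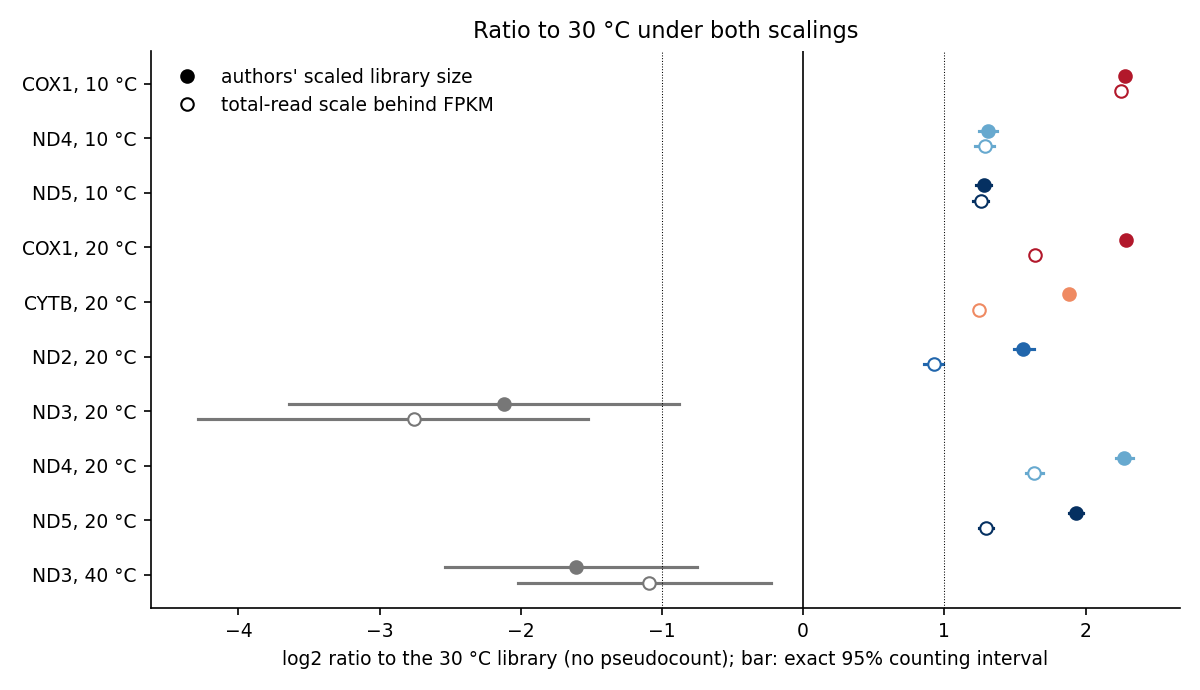
Log2 ratio of each member to the 30 °C library at each temperature where it was listed, without a pseudocount. Filled points use the authors' scaled library sizes, open points the total-read scale behind FPKM, bars are exact 95% intervals for counting error, and dotted lines mark 2-fold; the open points at 20 °C lie left of the filled ones, and ND2 then falls below 2-fold.

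Counted with a mean of at least 1 CPM and a pseudocount of 1 CPM, 3 of 3 members were at least 2-fold higher at 10 °C, against 36.2% of the 2114 listed contigs that met the same filter. Every contig listed at 10 or 20 °C had a deposited fold of at least 2.36. For members with many reads, passing 2-fold in CPM was thus fixed by the listing, and only the direction could vary. CYTB, ND2 and ND3, not listed at 10 °C, are outside the count there. At 20 °C 5 of 5 were at least 2-fold higher, against 31.4% of 1360 contigs, and 4 of 5 on the FPKM scale, against 10.9% of 1184. On the FPKM scale at 10 °C it was again 3 of 3, against 35.2% of 2101. No counted member was at least 2-fold lower at either temperature, against 47.0% of listed contigs at 10 °C and 48.3% at 20 °C, and on the FPKM scale 47.6% and 63.8%. At 40 °C no member met the filter. Of 2210 contigs counted there, 40.1% were past 2-fold on the higher side and 43.4% on the lower, and of 2406 on the FPKM scale 49.7% and 19.5%. The median log2 ratio of the members was 1.30 at 10 °C and 1.92 at 20 °C, beside -0.93 and -0.97 over all listed contigs that met the filter. On the FPKM scale the median of the members at 20 °C was 1.29, beside -1.35 over all. The listing shapes these medians too, since contigs with many reads and a CPM fold below 2.36 are absent from them. The medians over all thus mainly reflect which direction holds more listed contigs, and neither they nor those of the members measure a typical shift. The comparisons share the library at 30 °C, so a low level in that 1 library would raise all of them.

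The same counts were made where a contig averaged 10 CPM or more over both libraries. All 5 members counted at 20 °C met this higher limit and were higher, against 26.6% of 267 contigs higher and 73.4% lower. At 10 °C all 3 counted members met it and were higher, against 32.0% of 350 contigs higher and 68.0% lower. At 40 °C no member met it, and of 650 contigs 41.2% were higher and 58.8% lower.

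The read ratio between 2 contigs of the same library needs no library scaling, and it showed that the member contigs did not move in step. Reads of COX1 here are all reads of its contig, and how many come from sequence beside COX1 was not tested. COX1 had 5.83 reads (5.60 to 6.06) for each ND4 read at 30 °C and 5.85 (5.72 to 5.99) at 20 °C, but 11.4 (11.1 to 11.7) at 10 °C. For each ND5 read COX1 had 3.84 reads (3.71 to 3.97) at 30 °C, 4.89 (4.79 to 4.99) at 20 °C and 7.66 (7.49 to 7.84) at 10 °C. Both ratios were thus highest at 10 °C, by more than counting error. The ratio of ND4 to ND5 reads was 0.659 (0.629 to 0.690) at 30 °C, 0.836 (0.812 to 0.860) at 20 °C and 0.673 (0.651 to 0.696) at 10 °C, so the 2 complex I messages were in nearly the same proportion at 10 and 30 °C.

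At 20 °C the ratio of COX1 to CYTB was 2.06 (2.03 to 2.10), against 1.57 (1.53 to 1.60) at 30 °C, and that of COX1 to ND2 was 10.5 (10.2 to 10.8) against 6.35 (6.10 to 6.61). The ratio of CYTB to ND5 was 2.37 (2.32 to 2.42) at 20 °C and 2.45 (2.37 to 2.54) at 30 °C, with overlapping intervals. That of CYTB to ND2 was 5.07 (4.91 to 5.23) at 20 °C and 4.05 (3.88 to 4.22) at 30 °C. In the summed reads of the COX1, ND4 and ND5 contigs, the COX1 contig made up 69.8% at 30 °C, 72.7% at 20 °C and 82.1% at 10 °C. Together these 3 contigs held 652 CPM at 30 °C, 3044.8 at 20 °C and 2687.7 at 10 °C. On the FPKM scale the same sum was 1954.3 at 20 °C and 2643.2 at 10 °C, which turns the order of these 2 temperatures. No library was repeated, so how far such ratios vary between libraries of 1 temperature is not known.

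**Figure D3:**
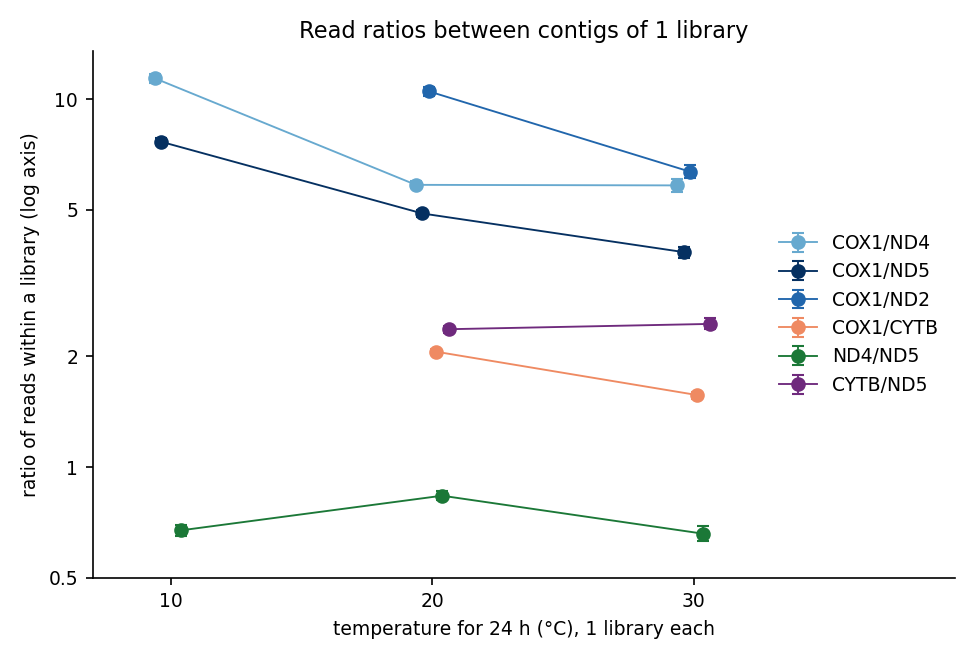
Ratio of reads between pairs of members within 1 library (log axis) against temperature in °C, with exact 95% counting intervals; points of 1 pair are joined and shifted slightly sideways. The ratios of COX1 to ND4 and to ND5 are highest at 10 °C, at 11.4 and 7.66, while that of ND4 to ND5 lies between 0.659 and 0.836.

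Per length, the order of the members differed between libraries. At 30 °C the FPKM was 179 for CYTB, 100.5 for COX1, 83 for ND2, 80.1 for ND5, 49.8 for ND4 and 3.31 for ND3. At 20 °C CYTB again led with 423, before COX1 with 313 and ND5 with 196, and ND2 and ND4 lay close together at 158 and 155. At 10 °C COX1, with 479, stood above ND5 and ND4, and CYTB and ND2 were not listed. The length that enters FPKM can be read from the reads behind each unit of FPKM. By this measure the COX1 contig was 3.06 times as long as the ND5 contig, whereas the ND4 and CYTB contigs were 1.06 and 1.1 times and the ND2 contig 0.583 times as long. In insects the coding sequences of COX1 and ND5 are of similar length. The contig named COX1 is therefore longer than that gene relative to ND5, and how many of its reads come from sequence beside COX1 was not tested. Whether counting used the strand is not given in the sources used here, so reads from opposite strands of the mitochondrial DNA cannot be told apart.

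The nuclear genes of the pathway were followed through lists chosen by protein description, with ant best hits only. Of the nuclear subunits of the respiratory chain, 4 contigs were listed at 10 °C, all from complex I. Only 2 of them reached a mean of 1 CPM, and 1 was at least 2-fold higher and 1 lower, in a table with 36.2% and 47.0% of contigs so called. The 49 kDa subunit of NADH-ubiquinone oxidoreductase (LOC105193097), part of the arm that carries electrons to ubiquinone, was 3.65-fold (3.39 to 3.93, 2788 reads against 974) higher. The 75 kDa subunit (LOC105201162), which holds iron-sulfur clusters, was 3.85-fold (2.79 to 5.43, 45 reads against 221) lower. Below that level, the accessory alpha subcomplex subunit 7-like held 17 reads against 3, and subunit 9 held 8 against 40. At 20 °C, where all 6 members were listed, 0 nuclear subunits with an ant best hit were listed, and at 40 °C 1 was, an alpha subcomplex subunit 9 contig at 2 reads against 20. A complex I assembly factor 7 contig held 5 reads at 10 °C and 11 at 40 °C against 34 at 30 °C, also below 1 CPM.

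Of genes that express the mitochondrial genome, 6 contigs were listed at 10 °C and 4 reached a mean of 1 CPM. Of these 4, 2 lay past 2-fold on the higher side and 2 on the lower, against 36.2% and 47.0% of all counted there. At 20 °C 3 were listed and 0 reached that mean. A contig of the transcription elongation factor, mitochondrial-like (LOC105198513), whose mammalian counterpart helps the mitochondrial RNA polymerase along its template, held 119 reads at 10 °C, 10 at 20 °C and 1 at 30 °C. Its fold was 152 (26.7 to 6042.1) at 10 °C and 16.5 (2.35 to 716) at 20 °C, on the 1 read at 30 °C. The mitochondrial ribosomal protein L50 (LOC105202721) was 2.62-fold (2.43 to 2.83, 2057 reads against 1001) higher at 10 °C. The tRNA ligases for valine (LOC105205850) and proline (LOC105201687), which load amino acids for mitochondrial translation, were 4.2-fold (3.70 to 4.79) and 2.96-fold (2.06 to 4.32) lower at 10 °C. At 20 °C ribosomal protein S35 held 29 reads against 15 and L20 held 25 against 10. At 40 °C the isoleucine ligase was the 1 listed member, at 4 reads against 24. Outside the lists, and chosen after its values were seen, a contig of the translational activator of cytochrome c oxidase 1, which in mammals is needed to translate the COX1 message, was 2.82-fold (1.93 to 4.21, 34 reads against 158) lower at 20 °C.

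Few genes of fuel supply and defence were listed. In the citric acid cycle list the pyruvate dehydrogenase E1 alpha subunit (LOC105205527), which feeds the cycle, was 6.61-fold (4.51 to 9.98, 166 reads against 32) higher at 10 °C, and no member was listed at 20 °C. At 40 °C citrate synthase (LOC105204538), the first enzyme of the cycle, was 2.75-fold (2.39 to 3.16, 850 reads against 273) higher, and malate dehydrogenase (LOC105202316), below a mean of 1 CPM, held 5 reads against 47. An ADP,ATP carrier (LOC105196958), which exchanges ATP for ADP across the inner membrane, was 3.01-fold (2.10 to 4.39, 104 reads against 44) higher at 10 °C, the only listed contig of the carriers and dynamics list in any table. Of the antioxidant list 1 contig reached a mean of 1 CPM at 10 °C, thioredoxin domain-containing protein 5 (LOC105195709), which was higher on 151 reads against 16. This contig is in the list by its name only, and whether its protein acts as an antioxidant was not tested. The same contig held 35 reads at 20 °C, where its mean was below 1 CPM. At 40 °C 2 of 3 listed contigs reached that mean and both were at least 2-fold lower in CPM, against 43.4% of all counted there. Neither was 2-fold lower on the FPKM scale. The third, thioredoxin reductase 2, below that mean, was higher on 53 reads against 11. The 2 lower contigs were a thioredoxin domain-containing protein 17-like contig and a Cu-Zn superoxide dismutase (LOC105204090). The first was at 2.76-fold (2.43 to 3.13, 355 reads against 863) on the CPM scale and 1.92-fold on the FPKM scale. The dismutase was at 2.40-fold (2.14 to 2.70, 443 reads against 939) on the CPM scale and 1.68-fold on the FPKM scale.

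**Figure D4:**
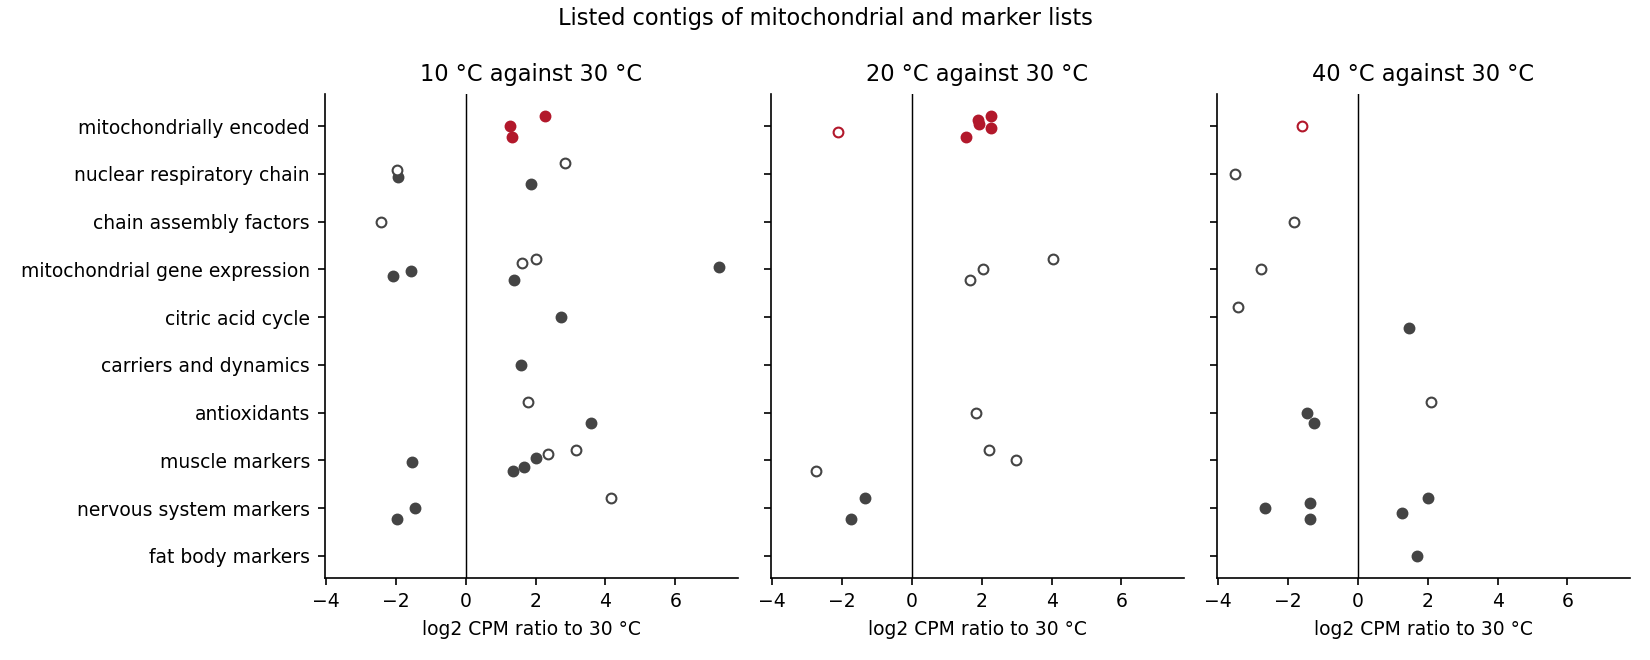
Log2 CPM ratio to 30 °C of every listed contig with an ant best hit in 10 lists, 1 panel per temperature; each point is 1 contig, red for the mitochondrially encoded members, and open points have a mean below 1 CPM. At 20 °C the filled points right of 0 are the 5 counted members. Of the other lists only the nervous system list has filled points there, its 2 markers left of 0, so the rest give no comparison.

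The libraries came from whole bodies, in which fewer cells of a type and less RNA per cell cannot be told apart. Of the muscle markers, genes of a tissue dense in mitochondria, 6 were listed at 10 °C and 4 reached a mean of 1 CPM. Of these 4, 3 lay past 2-fold on the higher side and 1 on the lower, against 36.2% and 47.0% of all counted there. The 6 had a summed 1800.3 CPM against 715 at 30 °C. Most of that sum was the muscle LIM protein Mlp84B-like (LOC105194324), a muscle structural protein, 2.55-fold (2.51 to 2.59, 51745 reads against 25900) higher. A twitchin-like contig (1817 reads against 729) and a tropomyosin-2-like contig (242 against 76) were also higher. A titin contig was 2.89-fold (2.44 to 3.45, 171 reads against 631) lower. At 20 °C 3 muscle contigs were listed, all below a mean of 1 CPM, with a summed 1.64 CPM against 0.836, and at 40 °C none. No contig with a best protein hit described as myosin heavy chain, troponin, paramyosin or flightin was listed at any temperature. Of nervous system markers 2 of 3 listed at 10 °C reached that mean, synaptotagmin 1 and synaptotagmin-5. Both were at least 2-fold lower, against 47.0% of all counted there, and the 3 summed to 6 CPM against 18.9. At 20 °C both listed markers, the same contigs, were at least 2-fold lower, against 48.3% of all counted there, with 6.25 CPM against 18.9. At 40 °C 2 lay past 2-fold on the higher side and 3 on the lower, against 40.1% and 43.4% of all counted there. Their sum was 71.4 CPM against 123. Rhodopsin made up most of the sum at 30 °C, at 33.7 CPM against 87.2, and was 1.81-fold lower on the FPKM scale. On that scale 1 synaptotagmin-5 contig was also 1.81-fold lower and another 4.41-fold lower, while synaptotagmin 1 was 3.43-fold and synaptotagmin-4 5.75-fold higher. Of all contigs counted on that scale, 49.7% were past 2-fold on the higher side and 19.5% on the lower. Synaptotagmin 1, lower at 10 and 20 °C, was 2.4-fold (2.16 to 2.66) higher at 40 °C. Fat body markers were listed at 40 °C only, as 1 contig of apolipophorins at 455 CPM against 140.2. The part of these markers in the mitochondrial values was not tested.

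Mitochondrial messages of other animals were present too. Contigs whose best hit was a vertebrate mitochondrial gene, mostly of rodents, numbered 7 at 10 °C, 2 at 20 °C and 8 at 40 °C, and every one of them was higher than at 30 °C on both scales. They held 17 to 146 reads each at 10 °C against 1 to 42 at 30 °C, 13 reads each at 20 °C against 1 to 3, and 114 to 762 at 40 °C against 1 to 42. Summed, they came to 0.424% of the members' reads at 10 °C and 0.0259% at 20 °C. At 40 °C they summed to 2339 reads against 123 at 30 °C. They are separate contigs, and their part in the members' values was not tested.

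The contigs whose pattern came closest to that of COX1 were sought among 169 other contigs with a protein name and a mean of at least 1 CPM in both the 10 and the 20 °C tables. Likeness was the mean absolute difference of log2 ratios over these 2 temperatures, with the pseudocount. The 5 closest were 2-hydroxyacyl-CoA lyase 1 (LOC105194976) at 0.145, PHD finger protein 14 (LOC105200522) at 0.146, a jockey-like reverse transcriptase of a mobile element at 0.196, hormone-sensitive lipase (LOC105198580) at 0.237 and a sporulation-specific protein 15-like contig at 0.277. These 5 were chosen for their closeness, and all ratios share the library at 30 °C. By the same measure ND4 lay 0.496 and ND5 0.679 from COX1. The closeness of most depends on the pseudocount. Without it, a setting added after the values were seen, the lyase lay 0.1 from COX1, the transposable element contig 0.592 and the lipase 0.718. The sporulation-specific protein 15-like contig lay 0.779 away and PHD finger protein 14, with 5 reads at 30 °C, 2.64. ND4 lay 0.486 and ND5 0.674 away. The 169 candidates were not ranked again without the pseudocount, so whether these 5 remain the closest is not known.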

How the data were processed

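Total RNA of whole workers was primed with oligo-dT and made into Illumina libraries, per the labels' protocols. The submitters' processing notes list, with no role, RSEM, Bowtie 1.1.2, Trimmomatic 0.38 and FastQC 0.11.7. The assembler and genome build are not given in the sources used here. The read counts deposited by the authors are whole numbers. The deposited normalized values are on a log2 scale and match log2(CPM + 1) on a library size constant within each library. The authors' FPKM columns follow total reads instead. The signed folds and p-values deposited by the authors come without replicates, and only the smallest fold is used. Of the 40 °C table, 1 line was not analysed here.

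From the counts a CPM ratio with an exact Clopper-Pearson 95% interval was computed for each contig. PCR reads are not independent molecules, so intervals cover counting error only. A contig was counted past 2-fold where it averaged 1 CPM or more over the libraries compared, with a pseudocount of 1 CPM. A read was worth 0.0230 to 0.0431 CPM. The formulas were tested on simulated counts. All members were named. Other lists go by the best protein description, so contigs described only as hypothetical are outside them, and up to 4 of a list with the most reads were named per temperature, with the other listed contigs given where few. Members and lists were chosen with earlier results of these data known. Calculations used SciPy 1.17.1, numpy 2.4.6 and pandas 2.3.3 in Python 3.11.15, and plots matplotlib 3.10.9.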

Additional observations from a re-analysis of the deposited data

How the results depend on the processing

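The counts and medians were recomputed with pseudocounts of 0.1 and 5 CPM, with no filter and with a mean of at least 10 CPM, with reads summed per gene, with any other contig naming Solenopsis and a mitochondrial genome (0 were added), and on the FPKM scale. With a 4-fold limit the count of higher members goes from 3 to 1 at 10 °C and from 5 to 2 at 20 °C. On the FPKM scale the median log2 ratio at 20 °C goes from 1.92 to 1.29, by the 0.64 by which the 2 scalings differ there. The other counts and medians with a value stayed within 1.5 times or within counting error. None of the 40 recomputed values of single members changed direction, but a pseudocount added to both libraries cannot reverse a ratio. The deposited normalized values gave the same ratios, since the library sizes were taken from them. Only the 10 values on the FPKM scale could have changed direction. Of these, 5 moved by more than 1.5 times, all at 20 °C. At 40 °C no median could be had, because ND3 is below the filter, and with no filter it is not 2-fold lower once the pseudocount of 1 CPM is added. No library could be left out, since each temperature has 1. No paired analysis was possible because each temperature has 1 library and the labels give no replicate numbers. Depth limits ND3, at 6 to 43 reads, and the nuclear contigs at few reads.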

Other observations

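A contig outside the members, singled out after its values were seen, had the best nucleotide hit of a beetle cytochrome b gene and the best protein hit of an ant serine protease 53-like protein. The labels say that colonies were fed mealworm, a beetle larva, and the contig's origin was not tested. It held 14 reads at 10 °C and 43 at 40 °C against 110 at 30 °C, which is 6.16-fold (3.52 to 11.6) and 2.90-fold (2.02 to 4.23) lower. It was not listed at 20 °C, the 1 temperature at which the CYTB contig was listed.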
